A study of Homo sapiens with 10 samples.

Results

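The solute carriers are the membrane proteins that move amino acids, sugars, lipids, vitamins, metals and inorganic ions into cells or between compartments. Here they were taken as the gene rows with a symbol made of SLC, a family number, A and a member number. They were selected on their FPKM (fragments per kilobase of transcript, scaled by upper-quartile normalization), which had to be at least 1 in PC3-Epi or PC3-EMT14. This gave 176 of the 342 rows with such a symbol, and of 23170 gene rows in all. Some of the other rows are copies on alternative haplotype sequences, such as those of SLC44A4, which were listed at 0. The 176 rows hold 175 distinct symbols, since SLC25A6 has a row on each sex chromosome copy with nearly equal values, whose reads cannot be told apart.

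The RNA-seq data cover 10 samples of PC3, an established human line from a prostate carcinoma, grown in RPMI with fetal bovine serum. PC3-Epi (2 samples) is a luciferase-carrying population chosen for bioluminescence and epithelial shape. PC3-EMT14 (3 samples) is 1 mesenchymal population isolated from PC3-Epi after co-culture with IL4-treated macrophages. The OVOL1 line, PC3-EMT14-OVOL1, has 3 samples, and the OVOL2 line, PC3-EMT14-OVOL2, has 2. Each overexpresses that zinc finger factor in PC3-EMT14 from a lentivirus, with the carrying cells selected. All groups descend from the luciferase line, and the comparator of both OVOL lines was PC3-EMT14 without an OVOL vector. The files hold 1 FPKM per gene, group and comparison, which is the authors' pooled value. No difference below was therefore tested against the spread between samples, and each ratio is a description of those pooled values.

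Epithelial and mesenchymal cells differ in polarity, and carriers are placed on the apical or the basolateral face of an epithelium, where they set which solutes cross it. SLC27 members bring in or activate fatty acids, SLC44 members carry choline and related cations, SLC7 and SLC1 members carry amino acids, SLC4 and SLC9 members set cell pH, and SLC25 members exchange metabolites across the inner mitochondrial membrane. ZEB1, a repressor that holds cells in the mesenchymal state, binds E-box letters in promoters, and OVOL factors bind a separate core.

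Of the 176 solute carriers, 3 were at least 2-fold away from PC3-EMT14 on the same side in PC3-Epi and in both OVOL lines. SLC27A2, an acyl-CoA synthetase and fatty acid transporter, and SLC44A4, a choline transporter-like protein that carries thiamine pyrophosphate, were higher in all 3 lines. SLC7A8, a light chain of the heteromeric exchangers for large neutral amino acids, was lower in all 3. The background was 1.31% of the 12441 gene rows at the same floor on the higher side and 1% on the lower side, so 2 and 1 of 176 members are no more than the share over all genes. The comparisons share the PC3-EMT14 samples.

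The 250 bases upstream of the 5′ end of these 3 loci are given because the same loci carry the pattern above, in build hg19 and read 5′ to 3′ on the gene's strand. Capitals mark CAGGTG or its reverse complement CACCTG, an E-box that ZEB1 binds. SLC27A2 is on chromosome 15 on the plus strand (window chr15:50474143-50474392), SLC44A4 on chromosome 6 on the minus strand (chr6:31846824-31847073) and SLC7A8 on chromosome 14 on the minus strand (chr14:23652850-23653099).
SLC27A2: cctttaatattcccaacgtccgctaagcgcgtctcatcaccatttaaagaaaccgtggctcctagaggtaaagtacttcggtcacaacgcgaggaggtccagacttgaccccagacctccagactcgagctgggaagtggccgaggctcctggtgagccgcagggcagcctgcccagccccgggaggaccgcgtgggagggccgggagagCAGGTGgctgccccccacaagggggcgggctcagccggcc
SLC44A4: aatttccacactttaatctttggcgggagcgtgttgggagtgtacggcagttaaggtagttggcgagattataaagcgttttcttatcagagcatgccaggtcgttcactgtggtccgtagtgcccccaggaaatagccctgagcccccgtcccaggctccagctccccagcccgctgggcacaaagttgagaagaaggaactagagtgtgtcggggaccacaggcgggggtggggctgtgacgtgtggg
SLC7A8: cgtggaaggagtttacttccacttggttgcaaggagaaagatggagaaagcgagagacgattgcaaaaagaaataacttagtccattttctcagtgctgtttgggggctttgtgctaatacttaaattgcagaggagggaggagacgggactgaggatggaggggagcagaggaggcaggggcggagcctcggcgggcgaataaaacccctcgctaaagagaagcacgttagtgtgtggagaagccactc
The SLC27A2 window holds 1 CAGGTG, which begins 40 bases before the 5′ end, and the other windows hold no such letters upstream. In the first 50 bases of the locus, which are not printed, SLC27A2 holds 1 CACCTG, SLC44A4 holds 1 CAGGTG and SLC7A8 holds neither. Their GC content was 64.4% for SLC27A2, 56.8% for SLC44A4 and 51.2% for SLC7A8. Counting also those 50 bases, CACCTG or CAGGTG stood in 42 of the 174 windows of the members (24.1%) and in 2068 of the 10711 windows of all genes at the floor whose strand was known (19.3%). The OVOL core CCGTTA or its reverse complement TAACGG stood in 3 of 174 windows (1.72%), against 404 of 10711 (3.77%). These are letter matches near the annotated 5′ end and no measure of binding.

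SLC27A2 (locus 50474393 to 50528589 on chromosome 15) was at 1.24 FPKM in PC3-EMT14, 3.69 in the OVOL1 line, 4.86 in the OVOL2 line and 7.97 in PC3-Epi. The ratio to PC3-EMT14 was 3.04-fold with OVOL1 and 4.03-fold with OVOL2, against 6.42-fold in PC3-Epi. The 4 pooled levels thus stood in the order PC3-EMT14, OVOL1, OVOL2, PC3-Epi. SLC44A4 (31830970 to 31846823 on chromosome 6) was at 0.286 FPKM in PC3-EMT14, 1.67 and 4.14 in the OVOL1 and OVOL2 lines, and 4.13 in PC3-Epi. With OVOL2 it stood at the PC3-Epi level, 14.9-fold above PC3-EMT14, and with OVOL1 it was 5.95-fold above. SLC7A8 (23594504 to 23652849 on chromosome 14) was at 2.54 FPKM in PC3-EMT14, 0.827 and 0.612 in the OVOL1 and OVOL2 lines, and 0.577 in PC3-Epi. It was 3.01-fold lower with OVOL1 and 4.03-fold lower with OVOL2, and all 3 lines were under 1 FPKM.

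The lines were checked on genes that define them. CDH1, the epithelial cadherin, was at 50.6 FPKM in PC3-Epi, 1.00 in PC3-EMT14, 16.2 with OVOL1 and 39.2 with OVOL2, and VIM, the mesenchymal filament vimentin, at 42.5, 271, 183 and 76.9. Of the 7 epithelial markers, 5 were at least 2-fold higher than in PC3-EMT14 in PC3-Epi, 3 with OVOL1 and 4 with OVOL2, and of the 5 mesenchymal markers, 2, 0 and 4 were at least 2-fold lower. Among those within 2-fold, CLDN4, a claudin of tight junctions, was at 212 FPKM in PC3-Epi and 271 in PC3-EMT14, and FN1, fibronectin, at 33.8 and 36.8. OVOL1 was at 11.3 FPKM in the OVOL1 line and OVOL2 at 831 FPKM in the OVOL2 line, so the amounts of the 2 factors differ as well as their identity, and amount and identity cannot be told apart. The 12 macrophage markers summed to between 0.350 and 0.479 FPKM in every group, and none reached 1 FPKM. KLK3, the prostate-specific antigen, was listed at 0 in every group. In bulk RNA, fewer cells that use a gene and less RNA per cell cannot be told apart.

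**Figure D1:**
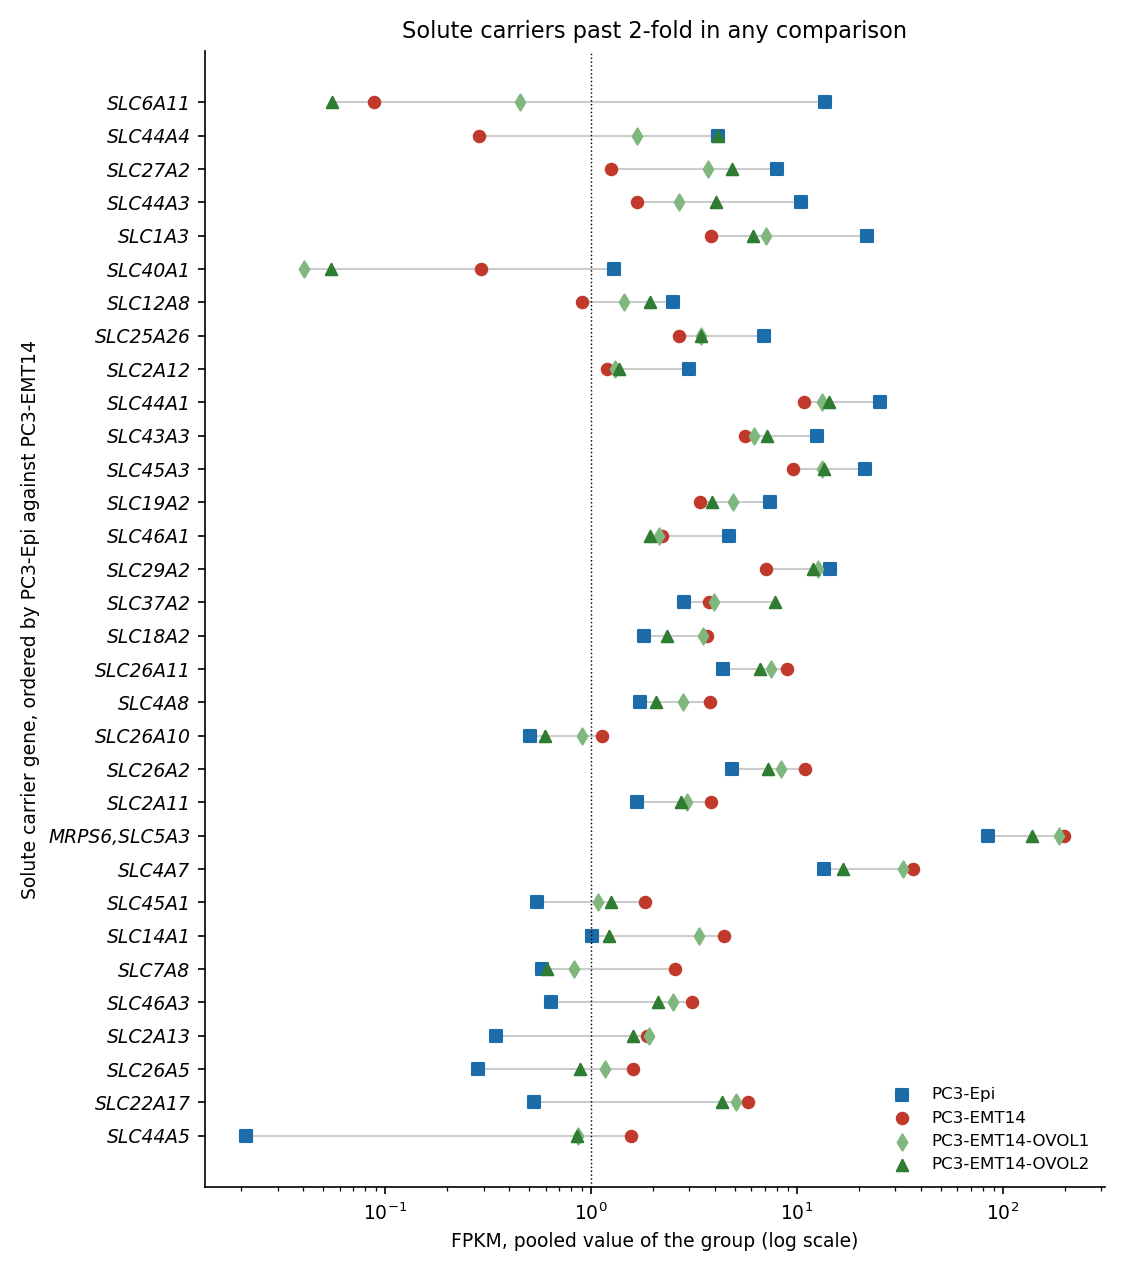
Each line of symbols is 1 solute carrier past 2-fold in any of the 4 comparisons (33 in all, of which 32 are drawn), with the authors' pooled FPKM of each group on a log axis and the dotted line at 1 FPKM. For 25 of the 33, PC3-Epi (squares) is past 2-fold from PC3-EMT14 (circles) while neither OVOL line (diamonds and triangles) is counted so, a share of 78.1% of the 32 past 2-fold in PC3-Epi beside 65.6% for all gene rows. SLC44A4, SLC27A2 and SLC7A8 are among those whose OVOL symbols lie toward PC3-Epi.

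The 176 rows summed to between 4003 and 4436 FPKM in the 4 lines. This sum includes the row that SLC5A3 shares with MRPS6, which is no solute carrier. MRPS6 alone was at 78.0 FPKM in PC3-Epi and 171 in PC3-EMT14. The median member was at 10.6 FPKM in PC3-Epi, 10.7 in PC3-EMT14, 10.3 with OVOL1 and 9.66 with OVOL2. Carriers of the inner mitochondrial membrane led the list. SLC25A5, an exchanger of ADP and ATP, was at 576 FPKM in PC3-Epi and 440 in PC3-EMT14, 489 with OVOL1 and 433 with OVOL2. SLC25A3, the phosphate carrier, was at 273, 282, 289 and 266 FPKM in the same order, and SLC25A39, which brings glutathione into mitochondria, at 241, 265, 293 and 259. These 3 rows made up between 23.5% and 25.8% of the summed FPKM of all member rows in each line, shared rows included.

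The other 9 of the 12 most abundant rows were both rows of SLC25A6, that of MRPS6 and SLC5A3, and carriers of lactate, amino acids, phosphate and zinc. SLC16A3 and SLC16A1, the proton-linked lactate carriers, were at 120 and 60.0 FPKM in PC3-Epi and 159 and 57.2 in PC3-EMT14. SLC38A2, a sodium-coupled carrier of small neutral amino acids, was at 94.5 FPKM in PC3-Epi, 177 in PC3-EMT14, 217 with OVOL1 and 201 with OVOL2, so that both OVOL lines lay on the far side of PC3-EMT14 from PC3-Epi at under 2-fold. SLC3A2, the heavy chain that SLC7A8 and its relatives pair with, was at 77.1, 54.2, 65.5 and 66.8 FPKM. SLC20A1, a phosphate importer, was at 88.3 in PC3-Epi, 112 in PC3-EMT14, 79.0 with OVOL1 and 68.9 with OVOL2. SLC39A7, which releases zinc from the endoplasmic reticulum, was at 93.3, 94.0, 91.6 and 73.9 FPKM. SLC25A6, a second ADP and ATP exchanger, was at 130 FPKM in PC3-Epi and 144 in PC3-EMT14 in each of its rows. Reads of its copies cannot be told apart, so a single row need not hold the full level of the gene.

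The 1 FPKM rule cut through a continuous range. Just inside it were SLC9A5 with 1.04 FPKM as the larger value, SLC24A1 with 1.10 and SLC26A10 with 1.13. Just outside were SLC26A1 with 0.967, SLC25A35 with 0.766 and SLC9A3 with 0.752. Of the 166 rows outside, 34 were listed at 0 in all 4 groups.

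Between PC3-Epi and PC3-EMT14, the contrast the 1 FPKM rule used, 15 solute carriers were at least 2-fold higher in PC3-Epi and 17 at least 2-fold lower, which is 8.52% and 9.66% of the members beside 7.37% and 8.34% of all gene rows at the floor. Both directions together gave 32 of 176 (18.2%) beside 15.7%. The median log2 ratio was -0.03 for the members and -0.01 for all genes. In size, the median log2 difference was 0.38 for the members and 0.36 for all genes. These shares and medians are descriptions, and nothing is read from them.

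**Figure D2:**
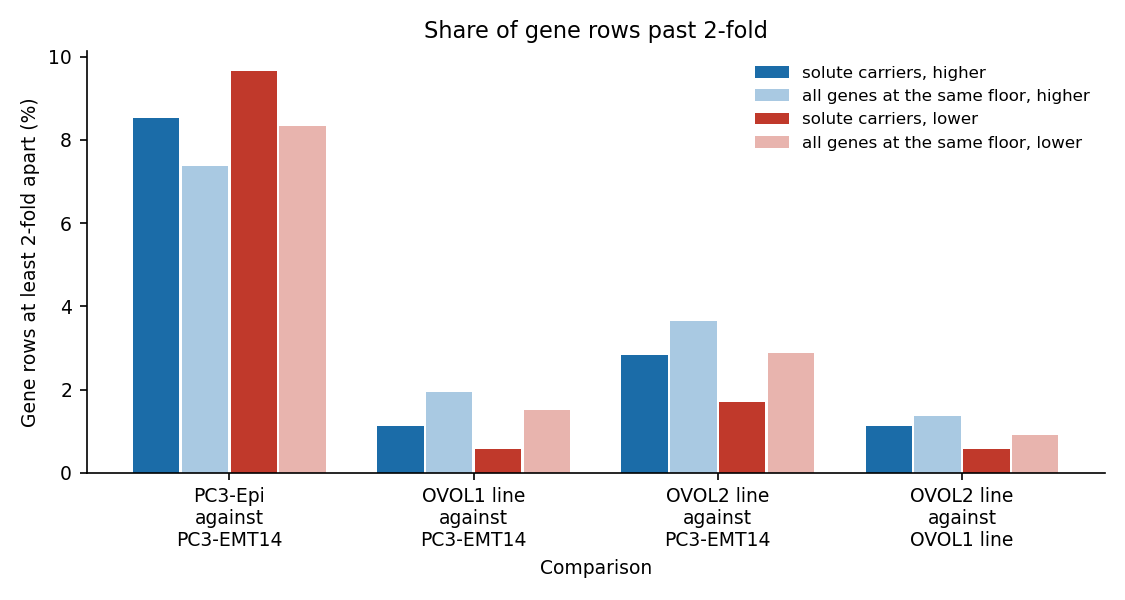
Bars give the percentage of gene rows at least 2-fold apart in each of the 4 comparisons, for the 176 solute carriers (dark) and the 12441 rows at the same floor (light), higher in blue and lower in red. The solute carriers stand at 8.52% and 9.66% in PC3-Epi and between 0.568% and 2.84% in the comparisons with an OVOL line.

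The 11 carriers of choline, lipids and acetyl-CoA had 4 rows higher and 1 lower in PC3-Epi than in PC3-EMT14. Their log2 ratios ran from -6.22 to 3.85, the widest range of the groups when no pseudocount is used. Both ends rest on a value under 1 FPKM, SLC44A5 at 0.0210 in PC3-Epi and SLC44A4 at 0.286 in PC3-EMT14. In the SLC44 family, SLC44A3 was at 10.4 FPKM in PC3-Epi, 1.67 in PC3-EMT14, 2.66 with OVOL1 and 4.04 with OVOL2. SLC44A1, the best known choline carrier of the family, was at 25.3, 10.9, 13.2 and 14.3 FPKM. SLC44A5 went the other way, at 0.0210 FPKM in PC3-Epi, 1.57 in PC3-EMT14, 0.863 with OVOL1 and 0.852 with OVOL2. SLC44A2, the most abundant of the family, was at 67.0 FPKM in PC3-Epi, 35.7 in PC3-EMT14, 26.9 with OVOL1 and 28.2 with OVOL2, under 2-fold in each comparison. So 3 of the 5 SLC44 genes were at least 2-fold higher in PC3-Epi than in PC3-EMT14, 1 was lower and 1 was within 2-fold. The family was set apart after its values were seen. Beside these counts and those of the groups below, the shares over all gene rows at the floor were 7.37% higher and 8.34% lower. The family and group counts are descriptions. SLC33A1, which moves acetyl-CoA into the endoplasmic reticulum, was at 18.3 and 25.7 FPKM in PC3-Epi and PC3-EMT14.

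Among the rows of amino acid carrier families, grouped by family number alone, 3 of 26 were higher in PC3-Epi and 1, SLC7A8, was lower. SLC6A11, a transporter that clears the neurotransmitter GABA, was at 13.6 FPKM in PC3-Epi and 0.0884 in PC3-EMT14, the largest log2 ratio of all members at 7.27. It was at 0.449 FPKM with OVOL1 and 0.0549 with OVOL2, under 1 FPKM in both lines. SLC1A3, a glutamate transporter, was at 21.8 FPKM in PC3-Epi, 3.83 in PC3-EMT14, 7.09 with OVOL1 and 6.13 with OVOL2. The OVOL lines were 1.89-fold and 1.65-fold above PC3-EMT14, both under 2-fold. SLC43A3, counted here by its family number and not by a known substrate, was at 12.5 FPKM in PC3-Epi and 5.57 in PC3-EMT14.

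Of the 23 carriers of sodium, protons, bicarbonate and chloride, 6 were lower and 1 was higher in PC3-Epi. SLC4A7, which brings bicarbonate in with sodium, was at 13.5 FPKM in PC3-Epi, 36.7 in PC3-EMT14, 32.7 with OVOL1 and 16.7 with OVOL2. The OVOL2 line lay close to PC3-Epi and the OVOL1 line close to PC3-EMT14. SLC26A5, the anion transporter relative known as the motor protein of cochlear hair cells, was at 0.282 FPKM in PC3-Epi and 1.60 in PC3-EMT14. The other 4 on the lower side were SLC26A2, a sulfate carrier, SLC26A10, SLC26A11 and the bicarbonate transporter SLC4A8, with log2 ratios between -1.18 and -1.03. SLC12A8, of the cation and chloride cotransporter family, was at 2.50 FPKM in PC3-Epi, 0.898 in PC3-EMT14, 1.45 with OVOL1 and 1.93 with OVOL2. SLC4A2, the anion exchanger that led this group, was at 42.5 and 42.2 FPKM in PC3-Epi and PC3-EMT14.

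Of 17 carriers in sugar transport families, 2 were higher and 4 lower in PC3-Epi. SLC2A12, a glucose transporter, was at 3.00 FPKM in PC3-Epi and 1.2 in PC3-EMT14, and SLC45A3, a gene known for prostate expression, at 21.5 and 9.58. SLC2A13, a proton-coupled myo-inositol carrier, was at 0.345 FPKM in PC3-Epi and 1.86 in PC3-EMT14, SLC45A1 at 0.543 and 1.83, and SLC2A11 at 1.68 and 3.81. The row of SLC5A3, the sodium-coupled myo-inositol carrier, also holds MRPS6, a protein of the mitochondrial ribosome, and was at 84.2 and 198 FPKM. In the isoform table SLC5A3 alone was at 6.22 FPKM in PC3-Epi, 27 in PC3-EMT14, 21.6 with OVOL1 and 14.8 with OVOL2, and MRPS6 alone made up most of the row with 78.0 and 171 FPKM in PC3-Epi and PC3-EMT14. The log2 ratio of PC3-Epi to PC3-EMT14 was -2.12 for the SLC5A3 isoform and -1.13 for the MRPS6 isoform. SLC50A1, a sugar efflux carrier, was at 49.6 and 64.7 FPKM.

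Carriers of vitamins and nucleosides had 3 of 9 higher and 1 lower in PC3-Epi. SLC19A2, a thiamine importer, was at 7.37 FPKM in PC3-Epi and 3.38 in PC3-EMT14, SLC46A1, the proton-coupled folate carrier, at 4.67 and 2.20, and SLC29A2, a nucleoside carrier, at 14.4 and 7.10. With OVOL1 and OVOL2, SLC29A2 was at 12.7 and 12 FPKM, nearer to PC3-Epi than to PC3-EMT14, at 1.83-fold and 1.74-fold. SLC46A3, a lysosomal carrier, was at 0.640 FPKM in PC3-Epi and 3.10 in PC3-EMT14.

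The remaining groups had at most 2 rows past 2-fold each. Of the 3 vesicle and urea carriers, 2 were lower in PC3-Epi, SLC14A1 and SLC18A2. SLC40A1, the iron exporter ferroportin, was at 1.29 FPKM in PC3-Epi, 0.291 in PC3-EMT14, 0.0403 with OVOL1 and 0.0547 with OVOL2, so both OVOL lines lay under PC3-EMT14 at levels below 1 FPKM. SLC22A17, a receptor for lipocalin-bound iron, was at 0.529 FPKM in PC3-Epi, 5.78 in PC3-EMT14, 5.07 with OVOL1 and 4.31 with OVOL2. SLC14A1, a urea transporter, was at 1.01 FPKM in PC3-Epi, 4.43 in PC3-EMT14, 3.35 with OVOL1 and 1.22 with OVOL2, and SLC18A2, a vesicular monoamine carrier, at 1.80, 3.63, 3.48 and 2.33. Of the 37 mitochondrial carriers only SLC25A26, which brings S-adenosylmethionine into mitochondria, was past 2-fold, at 6.90 FPKM in PC3-Epi and 2.66 in PC3-EMT14. None of the 16 zinc carriers, 5 nucleotide sugar carriers, 3 phosphate and carboxylate carriers or 2 calcium exchangers was past 2-fold. The log2 ratios of the zinc carriers ran from -0.87 to 0.91.

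**Figure D3:**
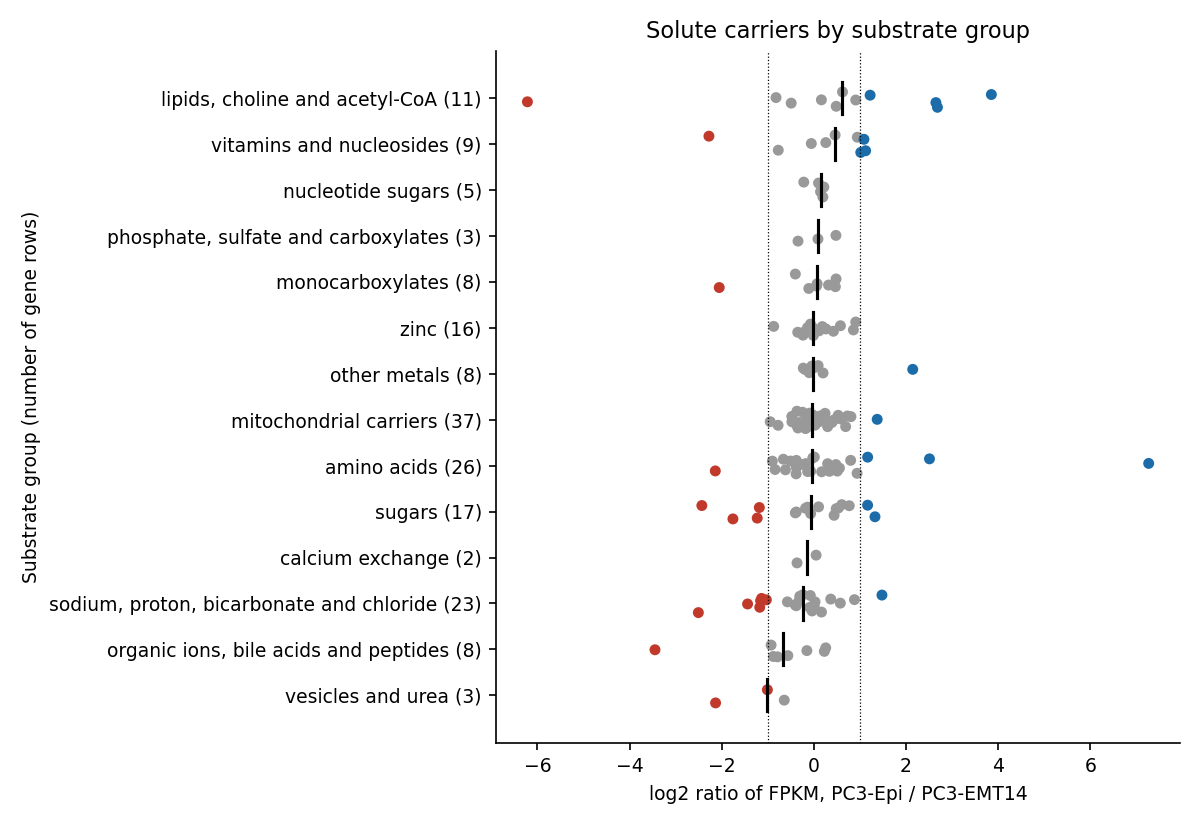
Each point is 1 of the 176 solute carrier rows, placed by its log2 ratio of PC3-Epi to PC3-EMT14 and by substrate group, with black bars at the group medians and dotted lines at 2-fold. Blue points are at least 2-fold higher and red points at least 2-fold lower in PC3-Epi, and the groups of zinc and nucleotide sugar carriers have none.

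With OVOL1, 2 solute carriers were at least 2-fold higher than in PC3-EMT14 and 1 lower, which is 1.14% and 0.568% of the members beside 1.95% and 1.51% of all gene rows (3 or 1.70% in either direction, beside 3.46%). They were SLC44A4 and SLC27A2 on the higher side and SLC7A8 on the lower. The median log2 ratio was 0.06 for the members and -0.00 for all genes, and 117 of 176 rows (66.5%) were within 1.2-fold, beside 70.1% of all gene rows. The 37 mitochondrial carriers all lay between -0.27 and 0.56 on the log2 scale. Both shares of members were lower than those of all genes, so the solute carriers gave no more rows past 2-fold than other genes did.

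With OVOL2, 5 solute carriers were at least 2-fold higher and 3 lower, which is 2.84% and 1.70% beside 3.64% and 2.89% of all gene rows (8 or 4.55% in either direction, beside 6.53%). The higher ones were SLC44A4 and SLC27A2, SLC44A3 at 2.50-fold, SLC12A8 with a log2 ratio of 1.15 and SLC37A2 at 2.16-fold. On the lower side were SLC7A8, SLC14A1 at 3.53-fold and SLC4A7 at 2.13-fold. Of these 8, SLC37A2, an exchanger of sugar phosphates for phosphate, was the one on the other side of PC3-EMT14 in PC3-Epi. Its level was 2.84 FPKM in PC3-Epi, 3.75 in PC3-EMT14, 3.95 with OVOL1 and 7.84 with OVOL2, so that only the OVOL2 line stood apart among the pooled values. In all, 25 of the 32 members past 2-fold in PC3-Epi (78.1%) were within 2-fold or under 1 FPKM with both OVOL factors, beside 65.6% of the 1954 gene rows past 2-fold in PC3-Epi. Of the 176 members, 143 (81.2%) passed 2-fold in none of the 4 comparisons, beside 82.5% of all gene rows at the floor.

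In the table that sets the OVOL2 line directly against the OVOL1 line, 2 solute carriers were at least 2-fold higher with OVOL2 and 1 lower, or 1.14% and 0.568% of members beside 1.36% and 0.9% of all gene rows (3 or 1.70% in either direction, beside 2.26%). SLC44A4 was at 4.14 FPKM with OVOL2 and 1.65 with OVOL1, or 2.51-fold higher. SLC37A2 was at 7.83 and 3.91 FPKM, which sits at the 2-fold limit. SLC14A1 was at 1.22 and 3.31 FPKM, or 2.72-fold lower. SLC4A7, at 16.7 and 32.4 FPKM, was 1.94-fold lower and just short of the limit. The median log2 ratio was -0.12 for the members and -0.04 for all genes.

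SLC7A8 and SLC22A17 lie near each other on chromosome 14, the latter at 23815527 to 23822080. Both were lower in PC3-Epi, while with OVOL1 and OVOL2 SLC22A17 was 1.11-fold and 1.30-fold below PC3-EMT14. The median log2 ratio of PC3-Epi to PC3-EMT14 over the 40 nearest expressed genes was -0.04 around SLC7A8, 0.20 around SLC44A4 and -0.12 around SLC27A2. Around the 32 members past 2-fold it ran from -0.23 to 0.47, with the highest value at SLC40A1.

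Several solute carriers differed more in which isoform was listed than in the gene total. An isoform share is the FPKM of 1 isoform as a percentage of the summed FPKM of all isoforms of its gene. Among members with more than 1 isoform and a summed isoform value of at least 1 FPKM in both groups, a share differed by at least 20 percentage points for 5 of 78 genes in PC3-Epi (6.41%, background 6.15%), 3 of 82 with OVOL1 (3.66%, background 2.61%) and 7 of 81 with OVOL2 (8.64%, background 4.63%). In the OVOL2 line against the OVOL1 line it was 6 of 83 (7.23%, background 2.98%). The isoform entries of the tables carry no transcript names, and the exons that tell them apart were not analysed here.

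In SLC44A2 the first of 2 isoforms held 83.0% of the FPKM in PC3-EMT14, 59.6% and 18.9% in the OVOL1 and OVOL2 lines, and 1.64% in PC3-Epi. The gene total was 1.30-fold and 1.23-fold below PC3-EMT14 in the OVOL1 and OVOL2 lines. The second SLC44A2 isoform was at 65.9 FPKM in PC3-Epi, 6.08 in PC3-EMT14, 10.9 with OVOL1 and 22.8 with OVOL2. The study had already listed both SLC44A2 isoforms among those that changed with OVOL2 and in PC3-Epi relative to PC3-EMT14. In SLC37A2 the first of 2 isoforms held 98.3% in PC3-EMT14, 51.6% with OVOL1 and 59.5% with OVOL2, and was listed at 0 in PC3-Epi. Here both OVOL lines held a mixture, at similar shares. The second SLC37A2 isoform was at 0.0636 FPKM in PC3-EMT14, 1.91 and 3.17 in the OVOL1 and OVOL2 lines, and 2.84 in PC3-Epi. In SLC25A14, a member of the uncoupling protein family, the first isoform held 78.4% in PC3-EMT14, 64.2% and 61.1% in the OVOL1 and OVOL2 lines, and 16.8% in PC3-Epi.

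Isoform shares of other members were as follows. The first isoform of SLC43A1, a facilitative carrier of large neutral amino acids, held 48.1% in PC3-EMT14, 54.7% and 53.1% in the OVOL1 and OVOL2 lines, and 81.0% in PC3-Epi. SLC37A4, the glucose 6-phosphate carrier of the endoplasmic reticulum, has 5 isoforms, and the last listed held 49% in PC3-EMT14, 38.9% with OVOL1 and 65.6% in PC3-Epi, and was listed at 0 with OVOL2. For SLC39A8, a zinc and manganese importer, the fourth isoform held 41.5% in PC3-EMT14 and 64.9% with OVOL2, beside 45.7% with OVOL1 and 47.3% in PC3-Epi. In SLC29A4, a monoamine and nucleoside carrier, the first isoform was near 0 in PC3-EMT14 and PC3-Epi and held 32.4% with OVOL1 and 22.9% with OVOL2, at 1.02 and 0.626 FPKM.

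**Figure D4:**
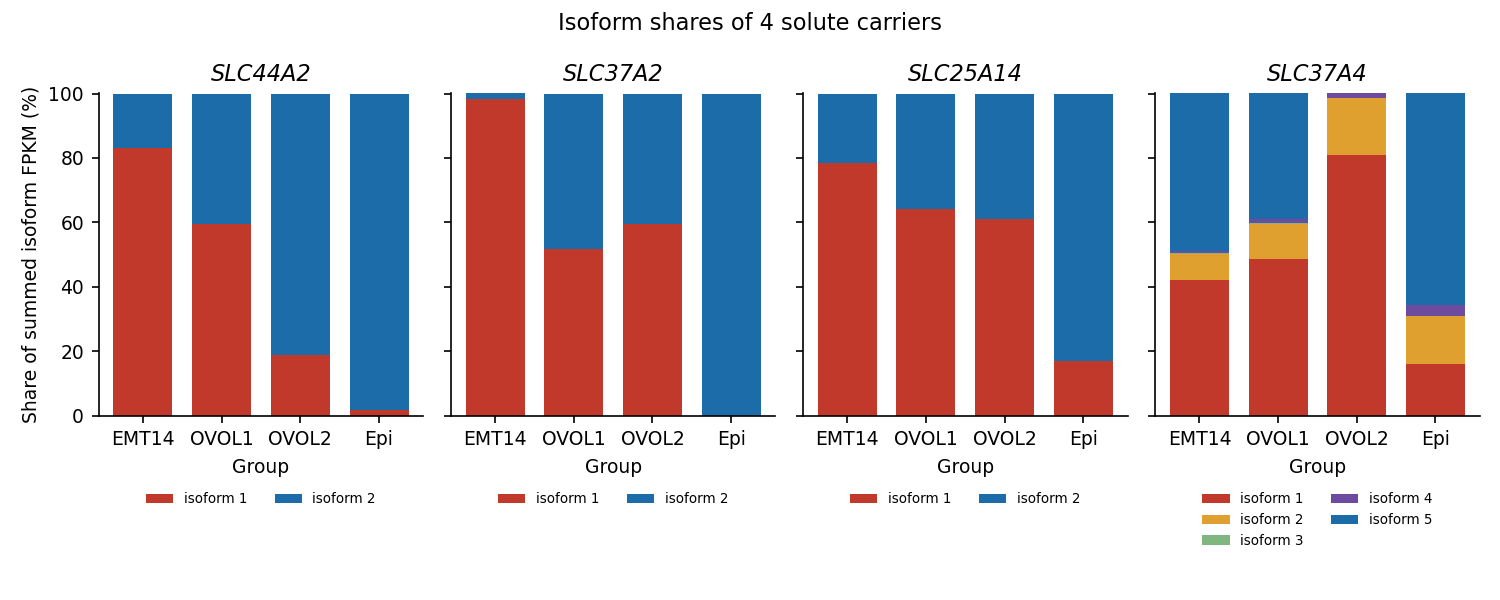
Stacked bars give the share of each isoform in the summed isoform FPKM of 4 solute carriers in PC3-EMT14, the OVOL1 line, the OVOL2 line and PC3-Epi, from the authors' pooled values. The first isoform of SLC44A2 goes from 83.0% in PC3-EMT14 to 18.9% with OVOL2 and 1.64% in PC3-Epi, and the last isoform of SLC37A4 is listed at 0 with OVOL2.

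A list of 30 genes that work with solute carriers (chaperones, scaffolds, carbonic anhydrases, the sodium pump and nutrient sensors) had 28 rows, 25 of them at the floor. Of these 25, 3 were at least 2-fold higher and 1 lower in PC3-Epi, 2 were higher and 0 lower with OVOL1, and 3 were higher and 0 lower with OVOL2. In the OVOL2 line against the OVOL1 line 2 were higher and 1 lower. The shares over all gene rows, higher and lower, were 7.37% and 8.34% in PC3-Epi, 1.95% and 1.51% with OVOL1, 3.64% and 2.89% with OVOL2, and 1.36% and 0.9% between the OVOL lines. FXYD3, a regulator of the sodium pump, was at 0.315 FPKM in PC3-EMT14, 17.8 and 47.2 in the OVOL1 and OVOL2 lines, and 36.9 in PC3-Epi. CA9, a carbonic anhydrase on the cell surface, was at 0.400, 3.87, 1.24 and 44.9 FPKM in the same order. ATP1B1, the beta subunit of the sodium pump, was at 31 FPKM in PC3-EMT14, 38.6 and 41.9 in the OVOL1 and OVOL2 lines, and 77.5 in PC3-Epi. SLC9A3R2, a scaffold with PDZ domains, was at 133 FPKM in PC3-EMT14, 94.4 and 98.3 in the OVOL1 and OVOL2 lines, and 39.8 in PC3-Epi. PDZK1, another such scaffold, was past 2-fold of PC3-EMT14 only in the OVOL2 line, at 2.40 FPKM beside 0.995 in PC3-EMT14. BSG, the chaperone of SLC16A1 and SLC16A3, was at 280 FPKM in PC3-EMT14 and 209 in PC3-Epi.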

How the data were processed

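RNA-seq of 10 PC3 samples in 4 groups was used, grouped by their titles. Per the study's methods, 50-base paired reads were aligned with TopHat to the UCSC hg19 transcriptome and compared with Cuffdiff, with upper-quartile normalization to compatible hits and correction for multiply mapped reads and sequence bias. The authors deposited 8 tables (4 of genes, 4 of isoforms) of FPKM values, each pooling the samples of a group into 1 value. The same tables hold the authors' fold changes, test statistics, p-values, q-values and status calls, which were not used. The number of unused columns with values per sample was 0. Depth per sample is unknown, so no interval or floor was computed, and no test was run.

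Ratios were taken within a table, without a pseudocount, in Python 3.11.15 with numpy 2.4.6 and pandas 2.3.3 (plots with matplotlib 3.10.9), after the counting was tested on simulated data. A row was counted when its ratio was at least 2 or at most 0.5 and the larger value at least 1 FPKM, and the background is the 12441 rows at 1 FPKM in PC3-Epi or PC3-EMT14. Levels of PC3-Epi and PC3-EMT14 come from their shared table, and those of the OVOL lines from their tables against PC3-EMT14, whose PC3-EMT14 values are lower by a constant factor of 1.02 and 1.03. Substrate groups follow the SLC family number. Upstream windows were read from the hg19 sequence at the 5′ end of each row's locus, with the strand from GENCODE, matched by symbol.

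Genes were named by abundance (12 highest), by ratio (10 in each direction and comparison), by a shared side in all 3 lines, by nearness to the 1 FPKM limit (3 on each side), by isoform share (5 in each comparison) and by group (2 highest). The other members past 2-fold, and genes added from the same families, were named after their values were seen. The members and lists were chosen with earlier results of these data known. In 3 rows 2 symbols share a locus, and in that of SLC13A3 and TP53RK nearly all signal is from the TP53RK isoform (13.2 FPKM of 13.4 in PC3-Epi). In 11 rows, SLC25A26, SLC46A1 and SLC5A3 among them, the locus runs over 10 kb past the annotated gene and may hold reads of a neighbour. A few genes that entered the counts are not reported here by name.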

Additional observations from a re-analysis of the deposited data

Results flagged for a closer look

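SLC6A14, an amino acid transporter of epithelia, lay outside the rule because it was at 0.671 FPKM in PC3-Epi and 0.0404 in PC3-EMT14, but it was at 1.48 FPKM in the OVOL1 line and 2.18 in the OVOL2 line. SLC9A3, a sodium and proton exchanger, lay outside it at 0.469 and 0.752 FPKM, and was at 1.05 FPKM in the OVOL2 line and 0.701 in the OVOL1 line. They were picked out as the 2 solute carrier rows outside the 176 that reached 1 FPKM in an OVOL line. Neither difference was tested, since each group has 1 pooled value.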

How the results depend on the processing

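No paired analysis was possible because the files hold 1 pooled value per group and no values per sample, so neither a replicate block nor leaving out single samples was run. Of 94 alternative values, 45 stayed close to those reported and 49 moved. Centring on the median of all genes, summing isoforms and leaving out rows of 2 symbols kept every count of members past 2-fold within 1.5 times.

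In PC3-Epi, 15 higher and 17 lower became 29 and 30 at 1.5-fold, 6 and 8 at 4-fold, and 9 and 11 with a pseudocount of 1 FPKM, and the lower count became 6 at a floor of 5 FPKM. With OVOL1, 2 higher and 1 lower became 9 and 5 at 1.5-fold, 1 and 0 at 4-fold and 0 and 0 at the floor of 5 FPKM, and the lower count became 2 without a floor and 0 with the pseudocount. With OVOL2, 5 higher and 3 lower became 10 and 12 at 1.5-fold, 2 and 1 at 4-fold and 1 and 1 at the floor of 5 FPKM, and the higher count became 2 with the pseudocount. OVOL2 against OVOL1, 2 higher and 1 lower became 4 and 2 at 1.5-fold, 0 and 0 at 4-fold and with the pseudocount, and 1 and 0 at the floor of 5 FPKM. Without a floor the lower count was 2, and with values from the tables against PC3-EMT14 the higher count was 1.

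The 2 members higher in all 3 lines became 6 at 1.5-fold, 1 at 4-fold and 0 at the floor of 5 FPKM, and the 1 lower became 2, 0 and 0, and 0 with the pseudocount. The 5 genes with an isoform share difference in PC3-Epi became 3 at a summed isoform value of 5 FPKM. The member median log2 ratio in PC3-Epi became -0.024 when centred and -6.6e-05 at the floor of 5 FPKM. With OVOL1 it was 0.048 with the pseudocount and 0.086 at that floor, and with OVOL2 it turned from -0.022 to 0.021 when centred and 0.0049 at that floor, so no direction is read from it. Directly compared, it was -0.080 when centred, -0.10 with the pseudocount and -0.15 at that floor. The thresholds set how many rows can pass, and low levels carry an unknown counting error, so ratios of genes near or under 1 FPKM, SLC7A8, SLC44A4, SLC40A1 and SLC44A5 among them, are the least firm.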

Other observations

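At the floor were 23 further SLC-named rows whose symbols the rule does not take, such as the organic anion and lettered families. Some are named after a carrier without being one, SLC2A4RG, SLC4A1AP, SLC7A6OS and SLC7A5P1 among them. Of the 23, 0 were past 2-fold in any of the 4 comparisons. The share over all gene rows at the floor was 15.7% in PC3-Epi, 3.46% with OVOL1, 6.53% with OVOL2 and 2.26% between the OVOL lines. Their median log2 ratio was -0.18 in PC3-Epi, -0.16 with OVOL1 and -0.23 with OVOL2, each against PC3-EMT14, beside -0.01, -0.00 and -0.04 over all gene rows.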
